A study of Mus musculus with 1009 samples.

Results

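The hippocampus libraries of an acute dietary restriction (aDR) experiment were examined for microRNA (miRNA) levels. Members were the libraries labelled hippocampus anterior or hippocampus posterior in the dietary restriction cohort, 18 of the 113 libraries of that cohort and of 1009 in the whole series. They came from 9 female C57BL/6JN mice aged 19 months, each of which gave 1 anterior and 1 posterior library. The study's methods describe tissue punches of the right hemisphere for its aging cohort and give no separate dissection for these mice. Mice 61, 62, 64, 65 and 67 were on aDR (n = 5) and mice 63, 66, 68 and 69 were fed ad libitum (AL, n = 4). Per the study's methods, mice were assigned at 18 months, food was reduced by 10% for 7 days and by 25% afterwards, the aDR mice were fed once a day, and animals were killed in the morning within 6 h before the usual feeding. The other 95 libraries of the cohort came from 12 other brain regions of the same mice. The comparison asked which miRNAs of the aged hippocampus differ between restricted and freely fed mice.

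MiRNAs are short RNAs that are cut from a hairpin precursor, loaded into an Argonaute protein and guided to messenger RNAs mainly by the seed, bases 2 to 8 of the mature strand. In the hippocampus, the brain region best known for memory formation, miR-132-3p and miR-212-3p are induced by neuronal activity through the transcription factor CREB and act on dendrites and synapses. Both strands of a hairpin can be sequenced as the 5p and 3p arms, and variants of a mature strand with other ends or bases are called isomiRs. Whole tissue was sequenced, so fewer cells of a type and less miRNA per cell cannot be told apart.

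The 8 miRNAs called in the anterior hippocampus and the miRNAs they are compared with are printed as RefSeq mature sequences (GRCm38.p6), 5′ to 3′, with the seed in capitals.
miR-132-3p: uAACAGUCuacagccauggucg
miR-128-1-5p: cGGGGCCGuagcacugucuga
miR-339-5p: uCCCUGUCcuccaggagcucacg
miR-3102-3p.2-3p: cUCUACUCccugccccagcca
miR-1249-3p: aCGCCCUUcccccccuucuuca
miR-8114: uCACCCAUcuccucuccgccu
miR-6958-3p: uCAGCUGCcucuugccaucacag
miR-677-5p: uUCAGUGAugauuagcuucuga
miR-212-3p: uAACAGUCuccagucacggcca
miR-451a: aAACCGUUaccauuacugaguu
let-7f-5p: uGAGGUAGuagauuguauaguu
The 8 called miRNAs had 8 different seeds. MiR-132-3p and miR-212-3p carry the same seed, AACAGUC, and differ in their other bases.

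Sites in the genome are given on GRCm38.p6 for 7 of the 8 called miRNAs, all but miR-3102-3p.2-3p. Mir132 lies at chr11:75173682-75173747 on the plus strand, in an intron of 1700016P03Rik. Mir128-1 lies at chr1:128202361-128202430 on the plus strand, in an intron of R3hdm1. Mir339 lies at chr5:139369650-139369745 on the minus strand, in an intron of 3110082I17Rik. Mir677 lies at chr10:128085286-128085363 on the plus strand, in an intron of Atp5b, which encodes a subunit of mitochondrial ATP synthase. The same annotation also lists Mir677 as a small nucleolar RNA gene on that strand. Exons on the same strand hold the hairpins Mir1249 (chr15:84951526-84951623, minus strand, 5031439G07Rik), Mir6958 (chr15:89185465-89185537, minus strand, Dennd6b) and Mir8114 (chr1:153899926-153900036, plus strand, Glul, the glutamine synthetase gene).

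The libraries held 1.31 to 13.5 mega-reads (units of 1000000 reads) on miRNAs, with a median of 8.97, and 862 to 1183 miRNAs with a read. The posterior library of aDR mouse 62 held both of the lowest values. None of 8 tests of depth, miRNAs with a read, share of the top miRNA and scaling factor by arm passed after Benjamini-Hochberg adjustment (two-sided exact permutation tests over 5 against 4 mice, lowest adjusted p = 0.212, smallest unadjusted p the design allows 0.0159). The trimmed-mean (TMM) scaling factor was 0.826 to 1.17 in anterior aDR libraries and 0.609 to 0.891 in anterior AL libraries. In the posterior part it was 1.09 to 1.60 in aDR and 0.897 to 1.16 in AL libraries. Its unadjusted p was 0.0635 in the anterior part and 0.0476, the smallest of the 8, in the posterior part (exact permutation tests). CPM stands for counts per 1000000 miRNA reads after TMM scaling and is the unit of every level.

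Some libraries stood apart from their region label. Each library was correlated with the median profile of every region over 398 miRNAs, as log2(CPM + 1) and with the library itself left out of the median. The anterior library of aDR mouse 67 was nearest to medulla (Pearson's r = 0.973), with r = 0.910 to anterior and 0.904 to posterior hippocampus. MiR-10b-5p, which lies in a Hox gene cluster and marks hindbrain, had 17.3 CPM in that library on the scale of all 113 libraries. It had at most 0.265 CPM in the other anterior libraries and a median of 24.0 CPM in medulla. MiR-34a-5p had 36649 CPM there, against 778 to 1789 CPM in the other anterior libraries and a median of 35807 CPM in medulla. MiR-10a-5p (21.7 against a medulla median of 17.7 CPM) and miR-1298-5p (49.7 against 47.3 CPM) were near medulla too. Others were far from the medulla median in that library. They were miR-183-5p (395 against 24 CPM), miR-182-5p (131 against 10.3), miR-96-5p (15.2 against 3.19), miR-429-3p (3.57 against 61) and miR-200b-3p (0.714 against 23). The anterior library of aDR mouse 61 was nearer to posterior (r = 0.976) than to anterior hippocampus (r = 0.958). Those of aDR mice 62 (r = 0.966 to anterior and 0.965 to posterior) and 65 (r = 0.970 and 0.967) were about equally near to both. The 4 anterior AL libraries had r = 0.971 to 0.990 to anterior and 0.931 to 0.968 to posterior hippocampus, and that of aDR mouse 64 had 0.979 and 0.948. The posterior library of AL mouse 68 was about equally near to both (r = 0.969 and 0.968). Of the 113 libraries of the cohort, 16 were nearest to a region other than their own. The anterior calls and lists are therefore given with and without mouse 67, and this choice was made after the data were seen.

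**Figure D1:**
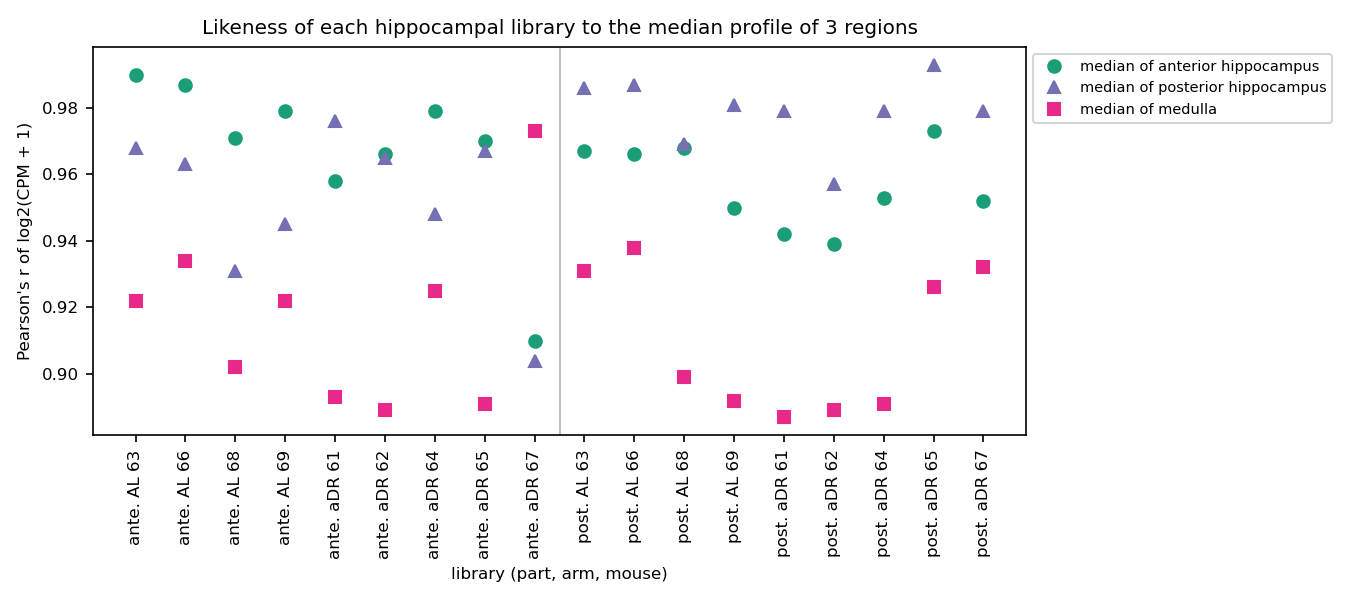
Pearson's r (vertical axis) of each of the 18 hippocampal libraries (horizontal axis, by part, arm and mouse) with the median profile of anterior hippocampus (circles), posterior hippocampus (triangles) and medulla (squares). The anterior library of aDR mouse 67 is the one library in which the medulla value, 0.973, is the highest of the 3.

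In the anterior hippocampus, 8 miRNAs were higher in aDR than in AL mice and none was lower. They were miR-339-5p, miR-1249-3p, miR-3102-3p.2-3p, miR-128-1-5p, miR-132-3p, miR-8114, miR-6958-3p and miR-677-5p. They made up 0.617% of the 1296 miRNAs tested (edgeR quasi-likelihood test, adjusted p below 0.05 and a fold of at least 1.5), and 160 miRNAs had an unadjusted p below 0.05. Not every aDR mouse carried the difference: mice 61, 62 and 65 were high for all 8, and mouse 64 lay within or near the AL range for most. Among the anterior libraries nearest to hippocampus, those of mice 61, 62 and 65 were also the ones about as near to the posterior profile as to the anterior one, or nearer. For 5 of the 8 (miR-132-3p, miR-339-5p, miR-128-1-5p, miR-1249-3p and miR-3102-3p.2-3p), all 4 posterior AL libraries were above all 4 anterior AL libraries, counting reads of every form. The levels were 6.39 to 56.9 against 0.331 to 2.66 CPM for miR-339-5p and 386 to 1412 against 81.5 to 211 CPM for miR-1249-3p. The 8 were picked by a test in which these same anterior AL libraries were low, so such separation follows in part from the choice. How many of all miRNAs separate in this way was not counted. Over all mice, 121 of 1315 miRNAs (9.20%) were called between the parts. For miR-3102-3p.2-3p, miR-132-3p and also miR-128-1-5p, the anterior levels of mice 61, 62 and 65 were above those of every posterior library. The part of the posterior profile in these calls was not tested. Without mouse 67, 38 of 1281 miRNAs were called (2.97%), of which 35 were higher and 3 lower, and all 8 were among them. Without any 1 of mice 61, 62, 63, 66, 68 or 69, no miRNA was called (99 to 168 at an unadjusted p below 0.05), 7 were called without mouse 65 and 24 without mouse 64. DESeq2 called 16 miRNAs, the 8 among them, and limma on log2 values called none with 163 at an unadjusted p below 0.05. With testing limited to the 391 miRNAs that averaged 10 CPM or more, none was called, and 5 of the 8 were tested, each with an edgeR adjusted p of 0.115 (74 of the 391 at an unadjusted p below 0.05).

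MiR-132-3p was high in 3 of the aDR mice. AL mice 63, 66, 68 and 69 had 12.9, 6.16, 10.8 and 11.4 CPM in the anterior hippocampus. The aDR mice 61, 62 and 65 had 876, 1001 and 2102 CPM, whereas mice 64 and 67 had 7.16 and 13.8 CPM. Thus 3 aDR libraries were far above all AL libraries and 2 were at the AL level. The log2 difference, aDR minus AL, was 6.26 (SE 1.26, edgeR adjusted p = 0.0300), and 6.61 (SE 0.80, edgeR adjusted p = 2.275e-06) without mouse 67. On the other arm of the same hairpin, miR-132-5p had 35.1 to 58.0 CPM in aDR and 18.6 to 53.9 CPM in AL mice. Its log2 difference was 0.42 (SE 0.37, edgeR adjusted p = 0.669). MiR-212-3p, which has the seed of miR-132-3p, had 420 to 1681 CPM in aDR and 629 to 1002 CPM in AL mice (log2 difference 0.19, SE 0.42, edgeR adjusted p = 0.867). The groups overlapped for both miRNAs.

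MiR-128-1-5p, the 5p arm of a hairpin whose 3p arm is the abundant neuronal miR-128-3p, had the same pattern. It had 0.470, 0.456, 0.387 and 1.16 CPM in AL mice 63, 66, 68 and 69. It had 78.8, 85.4 and 107 CPM in aDR mice 61, 62 and 65, and 0.968 and 0.504 CPM in mice 64 and 67. The log2 difference was 6.42 (SE 1.29, edgeR adjusted p = 0.0300), and 6.77 (SE 0.77, edgeR adjusted p = 1.436e-06) without mouse 67. MiR-128-3p had 560 to 4272 CPM in aDR and 1543 to 3719 CPM in AL mice, so that the groups overlapped for it.

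MiR-339-5p had 57.4, 34.9, 1.35, 34.2 and 14.6 CPM in aDR mice 61, 62, 64, 65 and 67, against 2.66, 1.37, 0.581 and 0.331 CPM in AL mice 63, 66, 68 and 69. Mouse 64 alone overlapped with the AL mice, and the log2 difference was 4.46 (SE 0.82, edgeR adjusted p = 0.0300), or 4.67 (SE 0.65) without mouse 67. MiR-3102-3p.2-3p had 147, 153, 8.13, 177 and 16.9 CPM in the aDR mice in the same order, against 8.93, 10.0, 5.23 and 6.13 CPM in the AL mice. Its log2 difference was 3.70 (SE 0.74, edgeR adjusted p = 0.0300), or 4.01 (SE 0.54) without mouse 67, again with mouse 64 within the AL range.

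MiR-1249-3p was the called miRNA in which the library nearest to medulla was highest. Its levels were 1461, 648, 172, 444 and 1718 CPM in aDR mice 61, 62, 64, 65 and 67 and 125, 211, 81.5 and 81.8 CPM in AL mice 63, 66, 68 and 69. The log2 difference was 2.78 (SE 0.56, edgeR adjusted p = 0.0300), and 2.46 (SE 0.44, edgeR adjusted p = 0.0005608) without mouse 67.

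The other 3 called miRNAs were scarce. MiR-677-5p had 11.6, 12.5, 1.74, 17.0 and 3.67 CPM in aDR mice 61, 62, 64, 65 and 67 and 0.828 to 1.71 CPM in AL mice (log2 difference 2.81, SE 0.60, edgeR adjusted p = 0.0386). MiR-8114 had 1.94 to 12.7 CPM in aDR and 0.194 to 1.32 CPM in AL mice (log2 difference 3.00, SE 0.61, edgeR adjusted p = 0.0300). For both, every aDR library was above every AL library, for miR-677-5p by as little as 1.74 against 1.71 CPM. Without mouse 67 their log2 differences were 3.06 (SE 0.50) and 3.10 (SE 0.56). MiR-6958-3p had 1 read in AL mouse 66 and none in the other AL mice, against 0.194 to 1.84 CPM in aDR mice. With so few reads its fitted log2 difference of 4.58 (edgeR adjusted p = 0.0300) depends on the prior count of the model.

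**Figure D2:**
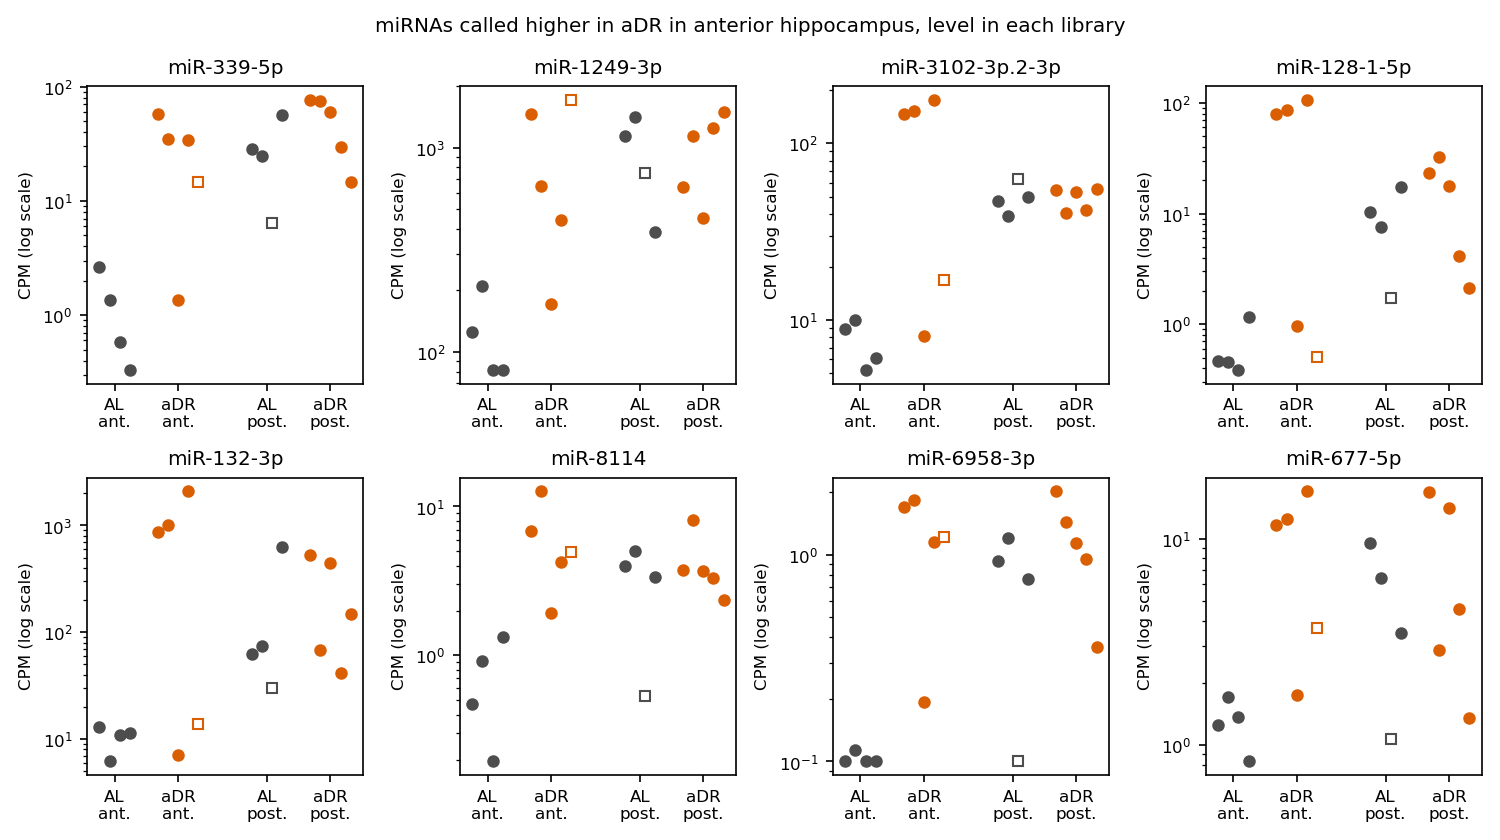
Level in CPM (vertical axis, log scale, levels below 0.1 CPM drawn at 0.1) of the 8 miRNAs called in the anterior hippocampus, for AL (grey) and aDR (orange) libraries of the anterior (ant.) and posterior (post.) part, 1 point per library. Open squares mark the anterior library of mouse 67 and the posterior library of mouse 68. For miR-132-3p, 3 anterior aDR libraries lie at 876 to 2102 CPM and the other 2 lie at 7.16 and 13.8 CPM, beside AL libraries at 6.16 to 12.9 CPM.

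Levels like those of mice 61, 62 and 65 were also found in freely fed animals, in this cohort only in other regions or the posterior part. No anterior AL library of this cohort reached them. To set them beside the other 12 regions, all levels in the next sentences are on the scale of the 113 libraries of the cohort, on which they are lower than on the scale of the 18 hippocampal libraries used above. On that scale, mice 61, 62 and 65 had 603, 719 and 1580 CPM of anterior miR-132-3p, and 10, 10 and 6 of the 46 AL libraries of the other regions had as much or more, up to 4645 CPM. The 49 aDR libraries of those regions had 2.65 to 63241 CPM. For miR-128-1-5p the 3 mice had 54.2, 61.4 and 80.3 CPM, and 1 AL library of the other regions had more, at 101 CPM. For miR-339-5p they had 39.5, 25.1 and 25.7 CPM, against at most 27.3 CPM in AL libraries of the other regions and 42.1 CPM in posterior AL libraries. For miR-1249-3p they had 1005, 466 and 333 CPM, against at most 1352 CPM in AL libraries of the other regions and 1009 CPM in posterior AL libraries. The one of the 8 for which no AL library of this cohort reached a level of these mice was miR-677-5p in mouse 65, at 12.8 CPM against at most 11.6 CPM in AL libraries of the other regions and 6.45 CPM in posterior ones. In anterior hippocampus of 24 freely fed females of the aging cohort of this study, 3 to 21 months old, miR-132-3p had 5.51 to 7275 CPM and miR-128-1-5p 0.918 to 172 CPM. There miR-339-5p had 2.07 to 53.2 CPM (median 12.7) and miR-1249-3p 127 to 512 CPM (median 285), which is below the level of mouse 61. The aging cohort was scaled on its own, so its levels are only set side by side with these.

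The reads counted as miR-132-3p differed in form between libraries. The annotated form is 22 bases long. A frequent shorter form lacks its last 3 bases and has the substitution U17A, counted from 1 at the 5′ end, and both are printed with the differing base in capitals.
annotated form: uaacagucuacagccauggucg
U17A form: uaacagucuacagccaAgg
The annotated form made up 39.6%, 29.1% and 41.8% of miR-132-3p isomiR reads in anterior libraries of aDR mice 61, 62 and 65, and 0% to 7.41% in the other 6 anterior libraries. The U17A form made up 0.319% to 0.614% in the 3 former and 3.66% to 25.7% in the 6 latter. In the posterior part, the U17A form made up 37.3% to 85.7% of reads in 8 of 9 libraries and 2.82% in that of aDR mouse 62. Counting reads without any substitution, per 1000000 miRNA reads, anterior aDR libraries had 785, 827, 2.56, 1355 and 9.11 in mice 61, 62, 64, 65 and 67, and AL libraries had 5.04, 1.02, 2.01 and 1.87. In substitution-free reads the difference in miR-132-3p was again called (log2 difference 7.60, SE 1.34, edgeR adjusted p = 0.0129).

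**Figure D3:**
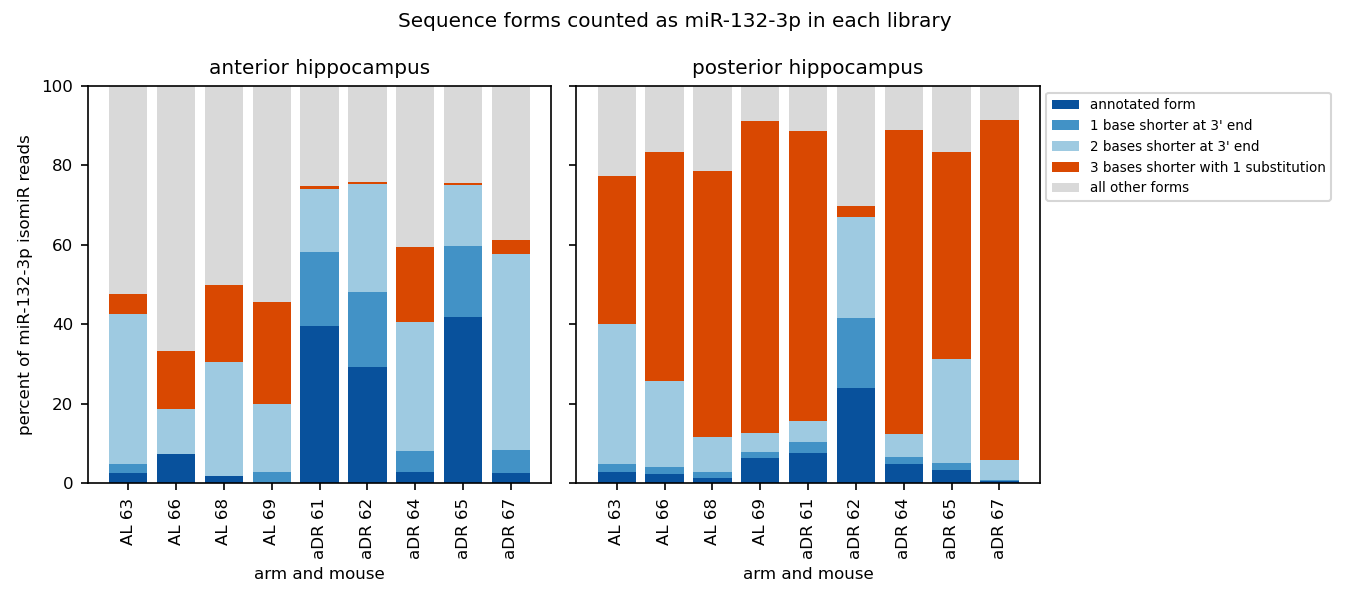
Share of miR-132-3p isomiR reads (vertical axis, percent) by form in each library (horizontal axis, arm and mouse), anterior part on the left and posterior part on the right. The annotated form (dark blue) reaches 29.1% to 41.8% in anterior aDR libraries 61, 62 and 65, and the shorter form with 1 substitution (orange) reaches 37.3% to 85.7% in all posterior libraries but that of mouse 62.

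For 12 named miRNAs with at least 100 isomiR reads in every library, the share of reads with the annotated sequence was compared between arms as the mean of both parts per mouse. None passed (two-sided exact permutation tests, lowest adjusted p = 0.444). MiR-132-3p was too scarce in several libraries for this test.

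In the posterior hippocampus, no miRNA was called (0% of 1290), and 46 had an unadjusted p below 0.05 in edgeR. The 8 miRNAs of the anterior part had log2 differences from -0.03 for miR-3102-3p.2-3p to 0.77 for miR-339-5p. Posterior miR-132-3p had 62.3, 74.6, 29.8 and 635 CPM in AL mice 63, 66, 68 and 69 and 524, 67.9, 445, 41.5 and 147 CPM in aDR mice 61, 62, 64, 65 and 67 (log2 difference 0.21, SE 0.65, edgeR adjusted p = 0.962). Both groups spanned the same range. These levels count reads of every form, and the U17A form was more frequent in most posterior libraries than in anterior ones. Posterior levels of reads without a substitution are not given here. Mouse 65, the highest anterior library, was among the lower posterior ones, and mouse 64, at the AL level in the anterior part, was among the higher ones.

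The 5 posterior miRNAs with the smallest p among those with a mean of at least 10 CPM were not called. MiR-1895 had a log2 difference of -3.13 (SE 0.69, edgeR adjusted p = 0.117). It had 505 CPM in AL mouse 68, 19.4 to 27.0 CPM in the other AL mice and 2.39 to 29.6 CPM in aDR mice, so the value rests on 1 library that stood apart in region likeness, and it was -0.61 (SE 0.41) without that mouse. Over the 18 libraries 7278 reads were counted as miR-1895, of which the isomiR table lists 1. MiR-324-3p had 108 to 125 CPM in AL mice and 280, 333, 303 and 138 CPM in aDR mice 61, 62, 64 and 65, with 83.6 CPM in mouse 67 (log2 difference 0.94, SE 0.35, edgeR adjusted p = 0.870). MiR-324-5p, from the same hairpin, had a log2 difference of 0.90 (SE 0.35). MiR-346-5p (1.13, SE 0.47) and miR-92b-3p (0.74, SE 0.31) had the same adjusted p of 0.870 in edgeR.

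Over both parts, with region as a term and the mouse as a random block (limma voom), no miRNA was called (0% of 1315). At an unadjusted p below 0.05 there were 131, the lowest adjusted p was 0.380, and the fitted correlation between the 2 libraries of a mouse was 0.0911. MiR-132-3p had a log2 difference of 2.36 (SE 1.04, limma adjusted p = 0.446) and miR-339-5p one of 2.05 (SE 0.70, limma adjusted p = 0.380). MiR-328-3p was one of the 5 with the smallest p. It had 3082, 3007, 855, 1662 and 1113 CPM in anterior libraries of aDR mice 61, 62, 64, 65 and 67 and 1449, 733, 300 and 429 CPM in those of AL mice 63, 66, 68 and 69. Its log2 difference was 1.02 (SE 0.32, limma adjusted p = 0.380). In the posterior part, 4 of 5 aDR libraries (1890 to 4425 CPM) exceeded the highest AL library (1821 CPM), and that of mouse 67 had 1580 CPM.

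The let-7 family, most of which shares the seed GAGGUAG, restrains growth and insulin signalling genes. All 11 members had a log2 difference below 0 in the anterior fit, in the posterior fit and over both parts, and none was called. The median was -0.59, -0.50 and -0.53, against 0.18, -0.01 and 0.05 over all miRNAs tested. With scaling by the total miRNA count, 2, 1 and 1 members were above 0 and the medians were -0.23, -0.24 and -0.21, against 0.56, 0.23 and 0.35 over all miRNAs. Without mouse 67, 10 of 11 were below 0 in the anterior part, with a median of -0.43 against 0.11 over all miRNAs. Over both parts, 9 of 11 had an unadjusted p below 0.05 (limma), against 131 of all 1315 miRNAs tested. In the edgeR fits of the single parts, 2 of 11 in the anterior and 1 of 11 in the posterior part did. Let-7f-5p had 22347 to 44558 CPM in anterior aDR libraries and 40072 to 86110 CPM in AL libraries. In the posterior part it had 11939 to 30059 CPM in aDR and 28212 to 45291 CPM in AL libraries, so groups overlapped in both parts (log2 difference -0.70, SE 0.22, limma adjusted p = 0.380). The members are near-identical in sequence, and reads may be split between them.

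MiR-3970 (log2 difference -0.85, SE 0.27), miR-106b-5p (-0.67, SE 0.21) and miR-487b-3p (-0.57, SE 0.19) completed the 5 with the smallest p over both parts, each with a limma adjusted p of 0.380. In the anterior part, all 5 aDR libraries were below all 4 AL libraries for each of the 3. In the posterior part, 3 of the 5 aDR libraries were below all AL libraries for each. The 3 were picked by p from a fit that held these libraries, so such separation follows in part from the choice. How many of all miRNAs separate in this way was not counted. Anterior miR-106b-5p, an intronic miRNA of the replication gene Mcm7, had 93.8 to 153 CPM in aDR and 161 to 341 CPM in AL mice. Anterior miR-487b-3p, from the imprinted miR-379-410 cluster, had 850 to 1353 CPM in aDR and 1459 to 2443 CPM in AL mice.

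Whether the aDR difference itself differed between the parts was tested as an interaction of part and arm. No miRNA passed with the mouse as a random block (0% of 1315, limma voom, lowest adjusted p = 0.701, 79 at an unadjusted p below 0.05). For miR-132-3p the posterior minus anterior difference was -3.46 (SE 1.82, limma adjusted p = 0.804). With the mouse as a fixed term in edgeR, 16 miRNAs passed (1.22%), 14 of them with a lower difference in the posterior part, and limma voom with the same term called none. Among the 16 were miR-128-1-5p (-4.51, SE 0.69, edgeR adjusted p = 1.299e-07) and miR-132-3p (-3.72, SE 0.71, edgeR adjusted p = 6.399e-05). The smallest p in the random-block fit belonged to miR-3064-3p, miR-6970-3p and miR-1249-3p, of which the first 2 had at most 9 and 35 reads in any library. MiR-1249-3p had a difference of -2.40 (SE 0.71, limma adjusted p = 0.701).

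Against the 12 other regions, no miRNA had a different aDR difference in hippocampus (0% of 1334, limma voom, lowest adjusted p = 0.999, 27 at an unadjusted p below 0.05). The smallest p belonged to miR-669p-3p, miR-6993-5p and miR-135b-3p, with hippocampus minus other regions of -1.79 (SE 0.66), 1.82 (SE 0.71) and 1.83 (SE 0.72). For miR-132-3p the value was 2.04 (SE 1.40). By this test no aDR difference was called particular to the hippocampus.

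MiR-451a, an erythrocyte miRNA whose maturation bypasses Dicer, was singled out in the study over all regions of these mice, hippocampus included, so its direction here is not independent evidence. It had 1.60, 13.1, 6.77, 0.177 and 4.83 CPM in anterior libraries of aDR mice 61, 62, 64, 65 and 67 and 0.313, 1.37, 0.387 and 0.662 CPM in those of AL mice 63, 66, 68 and 69. The lowest level of all was that of aDR mouse 65, and the other 4 aDR mice were above the AL mice. Anterior libraries held 2 to 107 reads of it. The log2 difference was 2.85 (SE 0.86, edgeR adjusted p = 0.181), and 2.87 (SE 0.74, edgeR adjusted p = 0.0250) without mouse 67. In the posterior part it was 0.99 (SE 0.55, edgeR adjusted p = 0.870). All 4 tested erythrocyte markers of the list of 5 had a log2 difference above 0 in each part, with none called. Among them, miR-144-3p had at most 5 reads in any anterior library and at most 3 in any posterior one. Without mouse 67, 3 of 4 were above 0 in the anterior part and miR-451a was called. Their summed level was 3.18 to 15.5 CPM in anterior aDR and 1.58 to 5.43 CPM in anterior AL libraries, on the scale of all 113 libraries. The part of blood in the tissue was not tested.

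Over all miRNAs tested, 57.9% had an anterior log2 difference above 0, and the median was 0.18 with all 9 libraries, 0.11 without mouse 67 and -0.01 in the posterior part. Of 6 activity-regulated miRNAs, only miR-132-3p was called in the anterior part, and all 6 were above 0 with a median of 0.50. Without mouse 67, 5 of 6 were above 0 (median 0.59), and in the posterior part 4 of 6 were (median 0.04). Among the 6, miR-212-5p had 3 reads in the anterior library of aDR mouse 62 and none in the other anterior libraries. MiR-134-5p had 393 CPM in the anterior library of mouse 67 and 70.1 to 142 CPM in the other anterior libraries. Of 12 miRNAs of energy and lipid metabolism, none was called in either part, with medians of -0.46 in the anterior part, -0.32 without mouse 67 and -0.06 in the posterior part. With scaling by the total count these medians were -0.05, 0.04 and 0.18, so that the sign changed in the last 2. None of 9 miRNAs of the miR-17-92 and paralogous clusters and none of 29 of the miR-379-410 cluster was called in the anterior part with all 9 libraries or in the posterior part with TMM scaling. With scaling by the total, miR-668-3p of the latter cluster was called higher in the anterior part with all 9 libraries, and 22 of 29 were above 0, against 12 with TMM. Without mouse 67, miR-668-3p was called higher with either scaling. None of 8 miRNAs of the miR-29 and miR-30 families was called in the anterior part (median -0.07, or 0.07 without mouse 67) or the posterior part (median 0.08). Of the miRNAs that the study singled out for brain aging, miR-146a-5p had a log2 difference over both parts of -0.37, miR-5100 one of -0.05 and miR-155-5p one of -0.01, and none was called. Their anterior median was 0.07, and -0.32 without mouse 67.

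Markers of other cell types were counted to see what moved with the arms. Of 10 choroid plexus and ependyma markers, 9 had an anterior log2 difference above 0 with a median of 1.45, and none was called. Without mouse 67 the median was 0.98, 8 of 10 were above 0, and miR-34c-3p, miR-34b-3p and miR-1298-5p were called higher. Their summed level was 6338 to 13068 CPM in the anterior libraries of aDR mice 61, 62, 64 and 65 and 23676 CPM in that of mouse 67. Anterior AL libraries had 1834 to 10270 CPM. The sums were led by miR-204-5p, and no marker was without a read. In the posterior part 5 of 10 markers were above 0 (median 0.03). Posterior sums were 7070 to 13646 CPM in aDR and 6258 to 12743 CPM in AL libraries. MiR-1298-5p, a choroid plexus miRNA, reached 263 CPM in the anterior library of mouse 64 and 6.04 to 49.7 CPM in the others, on the scale of all 113 libraries like the summed levels. Without mouse 67, that of mouse 64 was the 1 aDR library above every AL library. The part of this tissue in the anterior results was not tested. Median log2 differences of 4.39 for the 3 miRNAs of the miR-183-96-182 cluster and of 5.25 for the 2 hindbrain markers became 0.51 and 1.17 without mouse 67. Their posterior medians were 0.54 and 0.43, and none of these miRNAs was called. Of 6 olfactory bulb markers, none was called with all 9 libraries of a part (medians -0.85 and 0.35), and miR-429-3p was called lower in the anterior part without mouse 67 (median -0.93). Of 8 neuronal markers, none was called with all 9 libraries of the anterior part (median -0.04) or the posterior part (median -0.03), and 1, miR-218-5p, was called higher in the anterior part without mouse 67 (median 0.07). Oligodendrocyte markers (medians 0.38 and 0.01) and microglial and other myeloid or lymphoid markers (medians 0.01 and -0.02) gave no call in either part. Without mouse 67 their anterior medians were 0.02 and -0.03, also without a call. The same held for endothelial markers (medians 0.49 and -0.12) and smooth muscle and pericyte markers (medians 0.15 and -0.01), whose anterior medians were 0.20 and -0.07 without mouse 67.

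**Figure D4:**
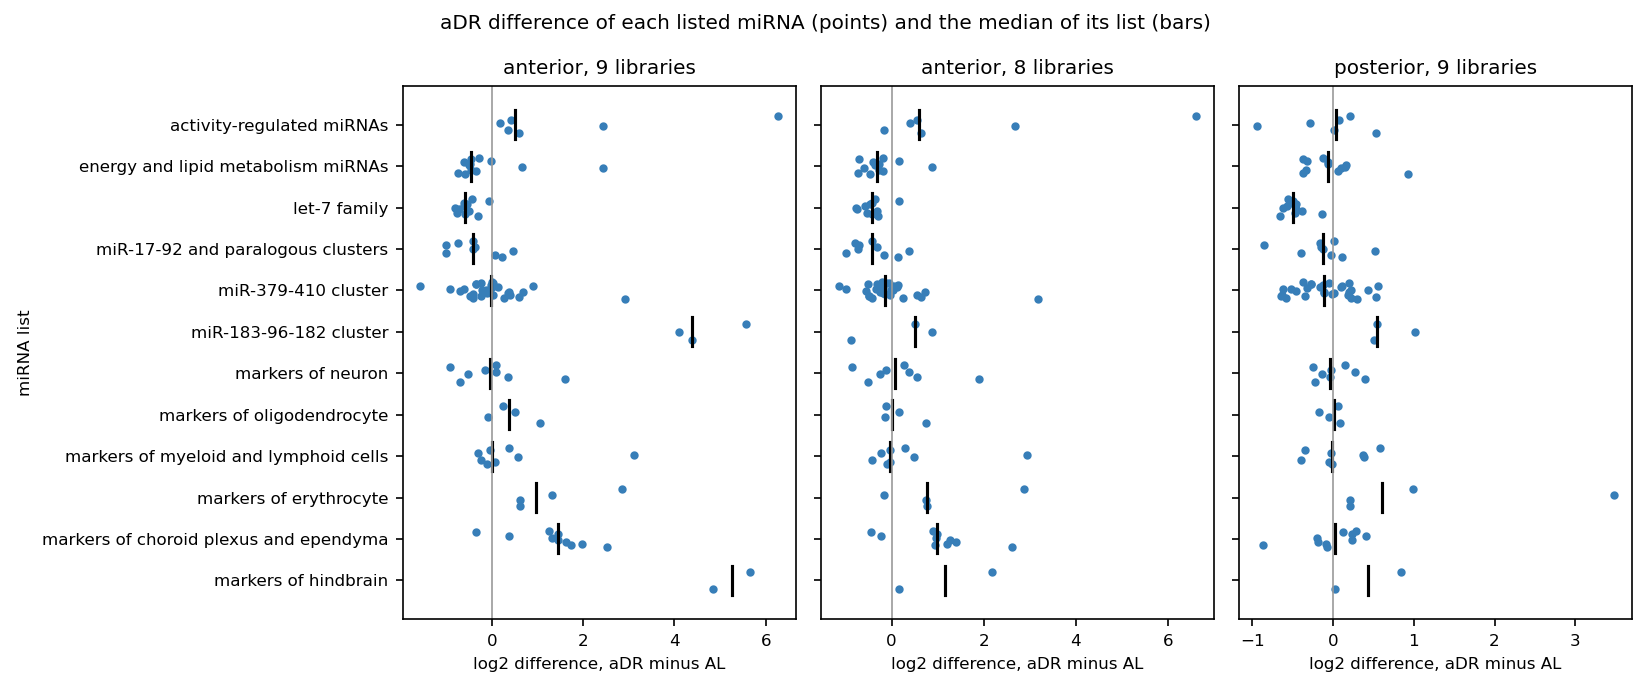
Log2 difference of aDR minus AL (horizontal axis) of each tested miRNA of 12 lists (vertical axis), with the list's median as a bar, for 9 anterior libraries, 8 anterior libraries without mouse 67 and 9 posterior libraries. The miR-183-96-182 and hindbrain medians move from 4.39 and 5.25 to 0.51 and 1.17 without mouse 67, and let-7 medians are -0.59 and -0.50 in the fits with 9 libraries.

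Among the 38 miRNAs called without mouse 67, 10 of the 35 higher ones had all 4 remaining aDR libraries above all AL libraries, and 24 had exactly 3 above. The 38 were picked by a test on these same libraries, so such separation follows in part from the choice. Its share over all miRNAs tested was not counted. Mouse 64 lay within the AL range for 14 of the 35 higher ones and below every AL library for 9 of them. The 3 lower ones were miR-3962, miR-429-3p and miR-26a-5p. MiR-26a-5p was the one with all 4 aDR libraries below all AL libraries, at 25704, 32554, 37603 and 36976 CPM in mice 61, 62, 64 and 65 against 41424, 42750, 137253 and 93801 CPM in AL mice 63, 66, 68 and 69 (log2 difference -1.23, SE 0.34, edgeR adjusted p = 0.0445). Scaling by the total miRNA count called 38 higher and none lower, and it moved the median of all miRNAs from 0.108 to 0.411. Neuronal miR-218-5p (log2 difference 1.90, SE 0.46, edgeR adjusted p = 0.0175) and miR-668-3p of the miR-379-410 cluster (3.19, SE 0.50, edgeR adjusted p = 0.0001483) were among the higher ones. In both, mouse 64 was below every AL library, at 607 against 635 CPM or more for miR-218-5p and 65.0 against 85.1 CPM or more for miR-668-3p.

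The anterior and posterior parts of the same mice differed in 121 of 1315 miRNAs (9.20%, edgeR with the mouse as block), 72 higher and 49 lower in the posterior part. Without mice 67 and 68, 178 of 1305 were called (13.6%), 113 of them shared. Leaving out these mice was a choice made after the data were seen. The posterior library of mouse 68 was about as near to the anterior profile, so more calls follow in part from leaving it out. Without mouse 69, 71 were called, and scaling by the total miRNA count called 195, of which 180 were higher and 15 lower, with 87 of the 121 among them. MiR-429-3p and miR-200b-3p, members of the miR-200 family that is abundant in olfactory bulb, share the seed AAUACUG and were higher in the posterior part of 8 of 9 mice. Both sequences are printed with the seed in capitals.
miR-429-3p: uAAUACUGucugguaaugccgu
miR-200b-3p: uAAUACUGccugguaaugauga
MiR-429-3p had 5.04 to 44.5 CPM in anterior and 90.4 to 267 CPM in posterior libraries, other than the 8.66 CPM of AL mouse 68 (log2 posterior minus anterior 3.28, SE 0.37, edgeR adjusted p = 6.27e-08). MiR-200b-3p had 1.01 to 35.9 CPM in anterior and 43.0 to 105 CPM in posterior libraries, other than 3.06 CPM in mouse 68 (3.01, SE 0.39, edgeR adjusted p = 6.518e-07). Their hairpins lie at chr4:156053905-156053987 and chr4:156055681-156055750 on the minus strand (GRCm38.p6), within Ttll10.

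MiR-338-3p and miR-219a-5p, which promote oligodendrocyte maturation, were lower in the posterior part in 9 and 8 of 9 mice. Their log2 differences were -1.45 (SE 0.25, edgeR adjusted p = 0.0001036) and -1.68 (SE 0.33, edgeR adjusted p = 0.0004261). Of the other oligodendrocyte markers, miR-219a-2-3p was also called lower (-1.06, SE 0.24). The other arm of the Mir338 hairpin, miR-338-5p, had a difference of opposite sign that was not called (0.65, SE 0.25, edgeR adjusted p = 0.103). In the fit without mice 67 and 68, chosen after the data were seen, miR-338-5p was called higher (0.64, SE 0.24, edgeR adjusted p = 0.0473). Let-7b-3p was lower in 9 of 9 mice, at 20.7 to 60.6 CPM in anterior and 8.61 to 14.4 CPM in posterior libraries. Of 11 let-7 family members, 6 were called lower in the posterior part with TMM scaling, 8 with relative log expression scaling and none with scaling by the total. MiR-339-5p was also higher in the posterior part, mainly in the mice whose anterior level was low. Its difference was 2.23 to 5.44 in the 4 AL mice and 4.70 in aDR mouse 64, but -0.21 to 1.08 in the other 4 aDR mice.

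**Figure D5:**
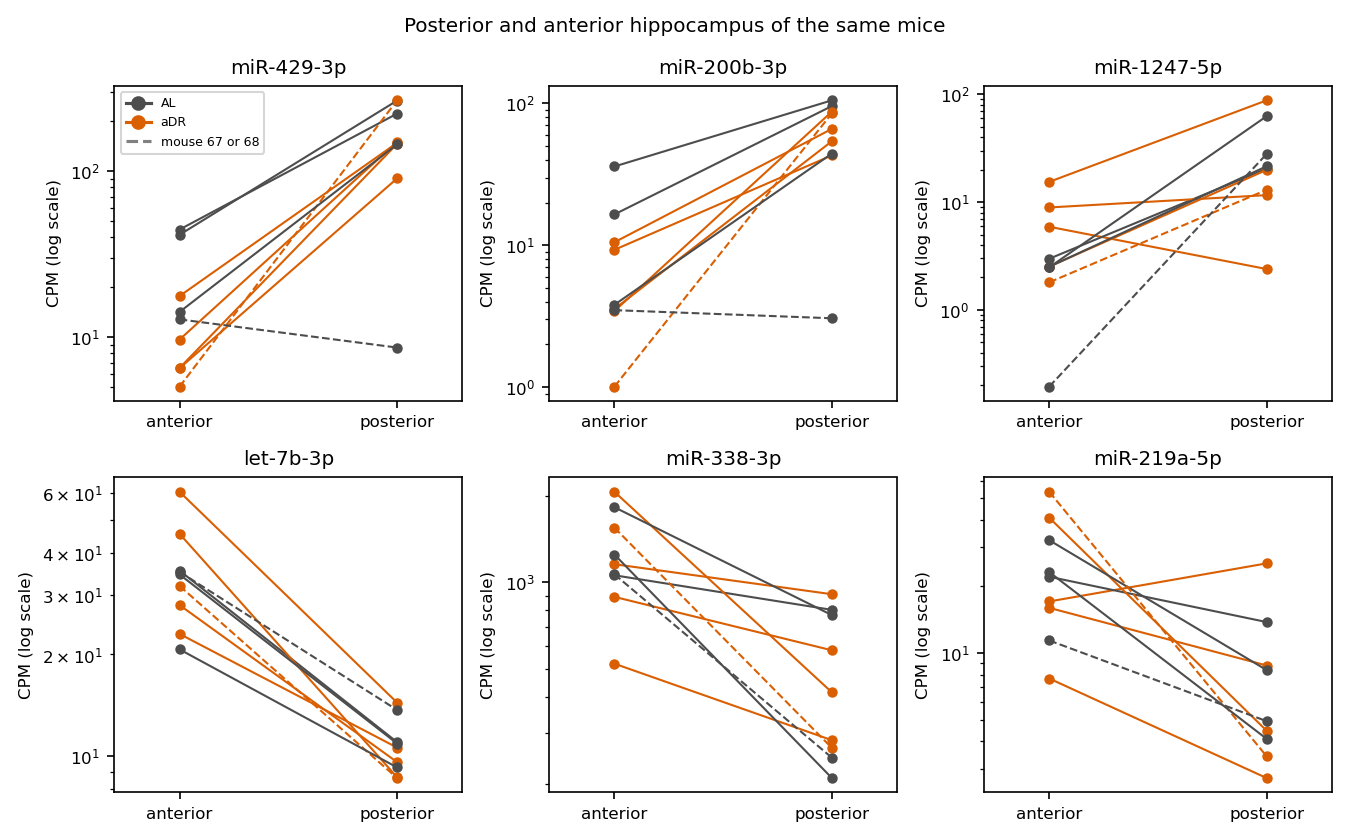
Level in CPM (vertical axis, log scale) of 6 miRNAs called between the parts, with a line from the anterior to the posterior library of each AL (grey) or aDR (orange) mouse and dashed lines for mice 67 and 68. MiR-429-3p and miR-200b-3p rise in 8 of 9 mice, and let-7b-3p and miR-338-3p fall in all 9.

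The same contrast in 24 freely fed females of the aging cohort, which the fit above did not use, called 60 of 1009 miRNAs (5.95%), 37 higher and 23 lower. Of the calls, 19 were shared, which is 15.7% of the calls in the diet cohort and 31.7% of those in the aging cohort, and 17 had the same direction. Of all the calls in the diet cohort, 120 were tested in the aging cohort, and 74 had the same sign there. MiR-429-3p (log2 difference 3.54, SE 0.34), miR-200b-3p (3.22, SE 0.45), miR-1247-5p (1.74, SE 0.22) and miR-7080-5p (2.23, SE 0.35) were called higher in both cohorts with edgeR. MiR-339-5p (-0.69, SE 0.36, edgeR adjusted p = 0.261) and miR-6769b-3p (-0.75, SE 0.24, edgeR adjusted p = 0.0562), higher in the posterior part of the diet cohort, were not called there. Nor was any of the 6 miRNAs with the largest changes to a lower posterior level. These were miR-338-3p (-0.16, SE 0.20, edgeR adjusted p = 0.672), let-7b-3p (-0.33, SE 0.15, edgeR adjusted p = 0.199), miR-219a-5p (-0.36, SE 0.30), miR-21a-5p (-0.60, SE 0.25), let-7d-3p (-0.255, SE 0.15) and miR-27b-3p (0.14, SE 0.27). The let-7 family had a median of 0.38 in the aging females and -0.67 in the diet cohort.

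Age was a readout that the diet comparison did not use. Over both parts of 49 libraries from aging-cohort females, 11 of 1009 miRNAs changed with age (1.09%, limma voom), and 2, none of them among the 11, with scaling by the total miRNA count. None of the 8 miRNAs called in the anterior part was among them. MiR-132-3p had a slope of -0.05 log2 per month (SE 0.06, limma adjusted p = 0.894) and miR-339-5p one of 0.02 (SE 0.02, limma adjusted p = 0.894). With age, miR-155-5p rose by 0.07 per month (SE 0.01, limma adjusted p = 4.128e-07) and miR-146a-5p by 0.04 (SE 0.01, limma adjusted p = 0.000271), both in a cohort on which the study chose them and with neither called under scaling by the total.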

How the data were processed

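The authors sequenced single-end small RNA libraries on a BGISEQ instrument, quantified them with miRMaster and Bowtie on GRCm38 (mm10 per the labels) and miRBase, and kept libraries with enough aligned reads. The deposited tables give expected counts for each mature miRNA, of which 0.837% in the diet cohort were not whole, and counts per isomiR. Expected counts were rounded. Of 1966 miRNAs, 1334 reached 5 reads in 10% or more of some region's libraries and were tested. Counts were scaled with TMM, and p-values were adjusted by Benjamini-Hochberg. Single parts were fitted by quasi-likelihood in edgeR 4.0.16, both parts with limma 3.58.1 (voom, duplicateCorrelation on the mouse), and DESeq2 1.42.0 was an alternative, in R 4.3.3. The count fits were tested on simulated data. A call needed an adjusted p below 0.05 and a fold of at least 1.5 (interactions and slopes: adjusted p alone). The SE printed for an edgeR fit is the absolute log2 difference divided by the square root of the quasi-likelihood F statistic.

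Named were all called miRNAs where 10 or fewer, the 5 with the smallest p and a mean of at least 10 CPM in each aDR comparison, the 3 with the smallest p in each interaction without calls, the 6 largest changes each way between parts, and members of the fixed lists. Among the 38 miRNAs called without mouse 67, names were chosen after their values were seen. Members and lists were chosen with earlier results of these data known. Mature sequences came from RefSeq and matched 28 of 34 named miRNAs. Loci came from a GRCm38.p6 annotation.

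The 2 parts of a mouse come from the same animal, which pairs them. Deviations from the group means correlated at -0.204 to 0.434 between the libraries of a mouse, over 404 miRNAs. Labels and methods do not say which libraries were pooled for sequencing. No pair of libraries agreed within sampling noise. Depth bounds counting error only, since reads carry no molecular identifiers.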

Additional observations from a re-analysis of the deposited data

Results flagged for a closer look

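Of 80 groups of 4 or 5 libraries examined, 11 held 1 library far from the rest (Dixon's test, which flags about 1 group in 20 by chance). Posterior AL mouse 69 had 635 CPM of miR-132-3p, against 29.8 to 74.6 in the other AL mice. It also had 1183 CPM of miR-328-3p, below the 1775 to 1821 CPM of the others. Posterior AL mouse 68 had 505 CPM of miR-1895 and 3149 CPM of miR-92b-3p, above 19.4 to 27.0 and 2032 to 2222 CPM. Posterior AL mouse 63 had 45291 CPM of let-7f-5p, above 28212 to 29187 CPM. Posterior aDR mouse 62, the shallowest library, had 8.13 CPM of miR-8114 and 56.0 CPM of miR-346-5p, above 2.35 to 3.74 and 8.47 to 15.0 CPM.

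In the anterior part, AL mouse 69 had 1.16 CPM of miR-128-1-5p, above 0.387 to 0.470 CPM, and AL mouse 68 had 32.0 CPM of miR-3970, above 14.9 to 17.7 CPM. AL mouse 66 with 0.114 CPM of miR-6958-3p and AL mouse 63 with 0.157 CPM of miR-3064-3p were the AL mice with a read of these miRNAs.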

How the results depend on the processing

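The 8 anterior calls became 16 without a filter and 16 with DESeq2, and 0 with limma trend or a mean of at least 10 CPM, with 0 to 38 when 1 mouse was left out. Alternatives chosen after seeing the data gave, for 8 anterior libraries, 26 calls with DESeq2, 0 with limma trend and 38 with scaling by the total. In the posterior part, 1 call (miR-1895) arose without a filter, and 0 to 1 when 1 mouse was left out. With both parts, no call arose in any fit, with or without the replicate block (0 and 0), nor when 1 mouse was left out. For the difference between parts, the mouse as a fixed replicate block in edgeR gave 16 calls, and 24 without the anterior library nearest to medulla. Posterior against anterior gave 121 calls, 195 with total scaling (180 higher and 15 lower), 73 without the replicate block, 31 in aDR mice only, 71 without mouse 69, and 71 to 165 when 1 mouse was left out. The aging females gave 60 calls, 29 with total scaling, 32 at 10 CPM and 93 without the block. The age slope gave 11, 2 with total scaling and 6 at 10 CPM. None of the miRNAs named for their calls or smallest p changed direction under these alternatives, but some uncalled list members (2 of the 3 brain-aging miRNAs) and medians did: with total scaling over both parts, several turned positive, among them those of energy and lipid metabolism (-0.213 to 0.0923), the miR-17-92 clusters (-0.279 to 0.0195) and the miR-379-410 cluster (-0.0587 to 0.251). Over the alternatives, 560 values of the miRNAs named for their calls, smallest p or change between parts kept their side of the threshold. A call was lost in 78 values and gained in 6, and the 560 include values that were called in neither fit. Scaling by the total moved the median of all miRNAs from 0.184 to 0.561 in the anterior part. The cause of these changes was not tested. With 4 and 5 mice, the values of scarce miRNAs rest on few reads in AL libraries.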
